A study of Mus musculus with 9 samples.

Results

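Transcripts of the CXC chemokines Cxcl1, Cxcl2, Cxcl9, Cxcl10, Cxcl14 and Cxcl16 were examined in interferon-gamma-treated mouse macrophages. The 6 genes were taken by symbol from a table of 29763 named genes. The study compared 3 genotypes, with 3 libraries each: macrophages lacking Ndufa4l3-miR147 (Ndufa4l3-miR147 KO, also called Nmes1-deficient), macrophages lacking Ndufa4 (Ndufa4 KO) and wild-type macrophages (WT). Bone marrow cells of each genotype had been grown for 7 days in medium holding 30% L929-cell supernatant, which supplies macrophage colony-stimulating factor, and all libraries came from cells given 40 ng/ml interferon-gamma for 12 h. Without libraries of unstimulated cells, the values say how genotypes differed under interferon and not what interferon changed. The labels name neither the strain, sex and age of the mice nor the design of either allele. The labels call the 3 replicates of a genotype technical, so p-values measure only the spread between these libraries and not that between mice.

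CXC chemokines are small secreted proteins that guide leukocytes through G protein-coupled receptors. Cxcl9 and Cxcl10, together with Cxcl11, are ligands of Cxcr3 on activated T cells and NK cells, and interferon-gamma is a classical inducer of both in macrophages. Cxcl1 and Cxcl2 attract neutrophils through Cxcr2 and are typical targets of NF-kB. Cxcl16 is made as a transmembrane protein that binds Cxcr6 and takes up oxidised lipoprotein, and it is released from the cell surface by Adam10 and Adam17. Cxcl14 is a ligand expressed in many epithelia, for which no single receptor is generally accepted. The series asks how the make-up of mitochondrial complex IV, to which the Ndufa4 protein belongs, relates to interferon signalling in macrophages, and chemokines that interferon induces are among its outputs.

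Of the 6 genes, 4 lie on mouse chromosome 5 (GENCODE annotation of GRCm38). Cxcl1 (chr5:90891241-90893115, plus strand) and Cxcl2 (chr5:90903871-90905938, plus strand) are 12.7 kb apart between midpoints. Cxcl9 (chr5:92321347-92328079, minus strand) and Cxcl10 (chr5:92346638-92348889, minus strand) lie 1419.8 kb from Cxcl2, measured from Cxcl9, and 23.1 kb apart. Cxcl14 is on chromosome 13 (chr13:56288643-56296551, minus strand) and Cxcl16 on chromosome 11 (chr11:70453983-70459984, minus strand). All 6 are annotated as protein coding. Exons of Cxcl10 share 133 bases with Art3 and exons of Cxcl16 share 552 bases with Zmynd15, in both cases on the opposite strand. Art3 was at 1.57 to 6.71 TPM in all libraries. The labels do not say whether the authors' quantification used strand.

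The promoters of Cxcl9 and Cxcl10 are shown because Cxcl9 differed in Ndufa4 KO from both other genotypes and no difference was found for Cxcl10. Each is the stretch of 250 bases before the transcript start in the RefSeq table (GRCm38.p6), written 5′ to 3′ on the strand of the gene. Capitals mark matches to an NF-kB site, an interferon-stimulated response element (ISRE) or a CCAAT box.
Cxcl9 (chr5:92328080-92328329, minus strand): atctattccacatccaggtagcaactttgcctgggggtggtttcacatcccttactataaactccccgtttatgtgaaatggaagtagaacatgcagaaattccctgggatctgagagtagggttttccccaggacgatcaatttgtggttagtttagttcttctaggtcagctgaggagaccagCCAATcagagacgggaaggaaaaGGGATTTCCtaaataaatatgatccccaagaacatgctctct
Cxcl10 (chr5:92348890-92349139, minus strand): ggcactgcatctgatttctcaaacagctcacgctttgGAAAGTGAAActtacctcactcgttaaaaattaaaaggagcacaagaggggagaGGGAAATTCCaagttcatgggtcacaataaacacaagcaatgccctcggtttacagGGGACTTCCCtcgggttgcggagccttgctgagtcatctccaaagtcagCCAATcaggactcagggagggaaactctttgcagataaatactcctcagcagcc

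The patterns searched, on both strands, were the NF-kB consensus of 10 bases, a shorter NF-kB pattern (GGGANTTCC), an ISRE pattern (GAAA, any 2 bases, GAAA), a gamma-activated site or GAS pattern (TTCNNNGAA) and CCAAT. The shorter NF-kB pattern and CCAAT were added after the sequences were seen. Cxcl9 held GGGATTTCC, 42 to 34 bases before its start, and a CCAAT box 65 to 61 bases before it. No match to the NF-kB consensus, ISRE or GAS pattern was found in its window, which says only that these letters are not in these 250 bases. Interferon-responsive elements of any other sequence were not searched for, so the window may hold some. Cxcl10 held an ISRE, GAAAGTGAAA, 213 to 204 bases before its start, and NF-kB consensus matches 159 to 150 and 103 to 94 bases before it. The second of these, GGGACTTCCC, also contains the shorter pattern. Both promoters carry the 11 bases CAGCCAATCAG around the CCAAT box, starting 68 bases before the start of Cxcl9 and 57 before that of Cxcl10. Among the 32841 promoters in the table, 3.9% held the NF-kB consensus, 1.43% the shorter NF-kB pattern, 2.98% the ISRE, 7.02% the GAS and 33.9% the CCAAT pattern.

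The windows of Cxcl1 and Cxcl2 around their NF-kB match are given as 40 bases each, with the match in capitals, since both genes carry the same letters there.
Cxcl1 (chr5:90891159-90891198, plus strand): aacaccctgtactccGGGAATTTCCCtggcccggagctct
Cxcl2 (chr5:90903787-90903826, plus strand): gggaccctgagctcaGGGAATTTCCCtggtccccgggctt
The match in each consists of overlapping consensus sites, 71 to 61 bases before the RefSeq start of Cxcl1 and 97 to 87 before that of Cxcl2. The 250 bases before these starts end at chr5:90891244 and chr5:90903898, which lie inside the genes as GENCODE places them. A run of 14 bases, GGGAATTTCCCTGG, is shared by both. Cxcl14 held an ISRE match 172 to 163 and a GAS match 191 to 183 bases before its start. A promoter of Cxcl16 was not used here. A match is a description of the sequence and no evidence of binding in these cells.

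Values are TPM, a transcript abundance normalised by length and scaled to a fixed library total, so levels of different genes can be compared. The TPM of the 29763 genes summed to between 913474 and 921678 per library, and 10809 to 10959 genes reached 1 TPM. Read depth is unknown because TPM keep none. AA467197, the symbol under which Ndufa4l3 is listed, lay between 2.21 and 4.50 TPM in Ndufa4l3-miR147 KO, 472 and 527 TPM in Ndufa4 KO, and 355 and 365 TPM in WT. Ndufa4 was listed at 0 TPM in all Ndufa4 KO libraries, but also at no more than 0.621 TPM in any Ndufa4l3-miR147 KO library and 0.303 TPM in any WT library, so it does not check the Ndufa4 KO label. Replicate 3 of Ndufa4 KO stood apart. Its upper quartile was 7.79 TPM, against 9.24 to 9.84 TPM in the other libraries, and its deviation from the gene means of its genotype had a Spearman correlation of -0.487 with transcript length across genes. Replicates 1 and 2 of Ndufa4 KO had 0.333 and 0.368, deviations from a mean that includes replicate 3, and libraries of the other genotypes had -0.0849 to 0.122. Macrophage markers summed to 8491 to 8644 TPM in Ndufa4l3-miR147 KO, 9395 to 9872 TPM in Ndufa4 KO and 8833 to 8963 TPM in WT. The order of these sums is that of Lyz2, the most abundant of them, with means of 4094, 5414 and 4585 TPM in the same genotypes. Cd68, the next most abundant, had another order, with means of 2489, 2373 and 2340 TPM. The sums therefore do not show that macrophage markers as a set were higher in Ndufa4 KO. Markers of T and NK cells summed to at most 0.689 TPM and those of B cells to at most 1.32 TPM in any library.

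Cxcl10 was the most abundant of the 6 transcripts. By mean TPM over the 9 libraries it ranked 171 among the 29763 genes, Cxcl16 ranked 644, Cxcl9 ranked 1209 and Cxcl14 ranked 4815. Cxcl2 ranked 11702 and Cxcl1 ranked 14945. Within every library the order was Cxcl10, Cxcl16, Cxcl9 and Cxcl14, with Cxcl1 and Cxcl2 far below. Cxcl1 and Cxcl2 failed the filter of 1 TPM in at least 3 of 9 libraries, which 11133 genes passed, so fold changes were tested for the other 4 members.

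**Figure D1:**
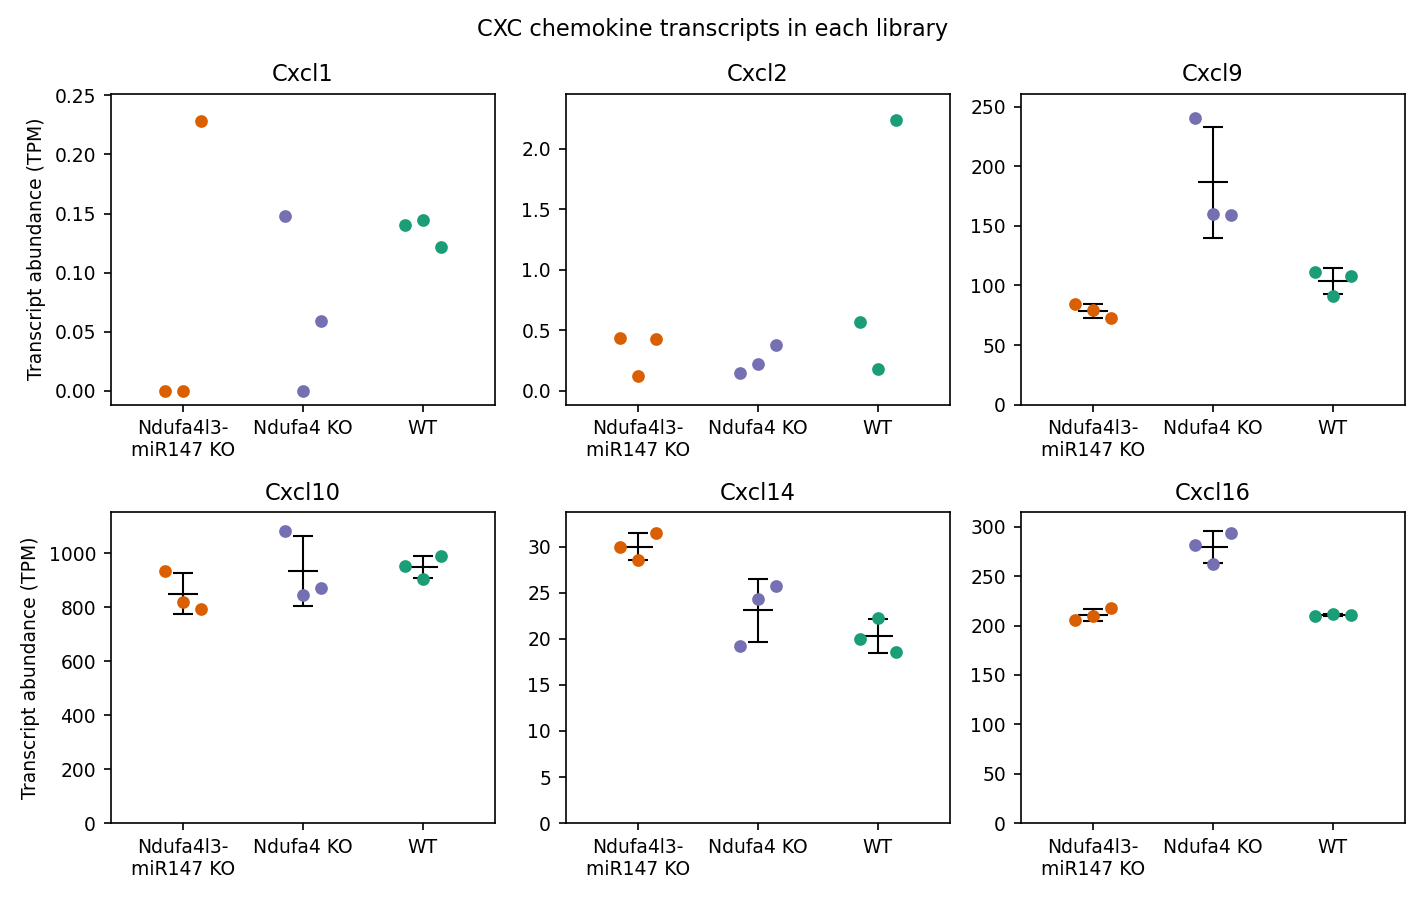
TPM of the 6 CXC chemokines in each library (points, replicates 1 to 3 from left to right), with the mean and SD of 3 libraries as bars for the 4 genes past the filter. Cxcl9 and Cxcl16 lie highest in the 3 Ndufa4 KO libraries, Cxcl14 lies highest in the 3 Ndufa4l3-miR147 KO libraries, and the genotypes overlap for Cxcl10. Axes differ between panels, and Cxcl1 stays under 0.25 TPM.

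Cxcl9, a T-cell attractant, was at 240.3, 160.3 and 159 TPM in replicates 1 to 3 of Ndufa4 KO, against 111, 91.6 and 108 TPM in WT. Every Ndufa4 KO library was above every WT library, and replicate 1 of Ndufa4 KO was well above the other two. Means were 187 ± 46.5 TPM in Ndufa4 KO and 104 ± 10.6 TPM in WT (SD, n = 3 each). On the log2(TPM + 1) scale Cxcl9 rose by 0.82 ± 0.15 (SE; 95% interval 0.47 to 1.16) in Ndufa4 KO, with a limma adjusted p of 0.0156 over all genes tested. The log2 difference corresponds to 1.76-fold, and the ratio of mean TPM was 1.80. Without the high replicate 1 of Ndufa4 KO the difference was 0.62 (limma adjusted p = 0.0103), and without replicate 3, the library that stood apart, it was 0.92 (limma adjusted p = 0.0085). The call was lost when a WT library was left out, namely without replicate 2 (0.73, limma adjusted p = 0.0687) or without replicate 3 (0.85, limma adjusted p = 0.0516). It was also lost, at the same difference of 0.82, without the filter (limma adjusted p = 0.0914) and when the 6 libraries of both genotypes were fitted alone (limma adjusted p = 0.0647).

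Cxcl16, the membrane-bound ligand of Cxcr6, was at 282, 262 and 294 TPM in Ndufa4 KO and at 209.5, 211 and 211 TPM in WT. The lowest Ndufa4 KO library lay above the highest WT library, and the WT libraries were almost identical. Means were 279 ± 16.0 TPM in Ndufa4 KO and 211 ± 0.980 TPM in WT (SD, n = 3 each). Cxcl16 rose by 0.40 ± 0.05 (95% interval 0.29 to 0.52; limma adjusted p = 0.0027). The call held under all 20 alternative settings, with differences between 0.37 and 0.52, including 0.37 without replicate 3 of Ndufa4 KO (limma adjusted p = 0.0017). Reads of Zmynd15, on the other strand, cannot be told apart from those of Cxcl16 in the 552 shared exon bases if strand was not used.

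Cxcl10, which shares its receptor with Cxcl9, was at 1082, 846 and 873 TPM in Ndufa4 KO and at 953, 906 and 989 TPM in WT. These libraries overlapped, with replicate 1 of Ndufa4 KO the highest and its replicate 2 the lowest of the 6. Cxcl10 averaged 934 ± 129 TPM in Ndufa4 KO and 949 ± 41.7 TPM in WT (SD, n = 3 each), a log2 difference of -0.03 ± 0.10 (limma adjusted p = 0.859). Its 95% interval, -0.25 to 0.19, lies below that of Cxcl9. Cxcl14 was at 19.2, 24.3 and 25.7 TPM in Ndufa4 KO, against 19.9, 22.3 and 18.6 TPM in WT. The libraries overlapped, and the log2 difference of 0.17 ± 0.11 (95% interval -0.08 to 0.42) was not called (limma adjusted p = 0.355). It was 0.29 without replicate 1 of Ndufa4 KO (limma adjusted p = 0.0712), 0.09 without replicate 3 of Ndufa4 KO and 0.12 without replicate 3 of WT.

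In Ndufa4 KO against WT, 2 of the 4 tested members were therefore called higher and 0 lower. Of all 11133 genes, 8.59% were called in that comparison, 2.83% higher and 5.76% lower. Calls toward higher values made up 32.9% of these, but 52.3% after median-of-ratios scaling and 52.1% after quantile normalization, and both members were called higher under either. The median log2 difference was 0.29 over the 4 members and -0.08 over all genes. The Ndufa4 KO libraries lay above the WT libraries without overlap for Cxcl9 and Cxcl16, as they did for 9.4% of all genes, and they did not overlap in either direction for 31.1%.

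In Ndufa4l3-miR147 KO, 0 of the 4 tested members were called against WT, where 0.431% of all genes were called (0.243% higher and 0.189% lower) and 917 genes had an unadjusted limma p under 0.05. Cxcl9 was at 84.2, 79.6 and 72.7 TPM in Ndufa4l3-miR147 KO and at 111, 91.6 and 108 TPM in WT. All 3 knockout libraries lay below all WT libraries, with means of 78.8 ± 5.78 TPM in Ndufa4l3-miR147 KO and 104 ± 10.6 TPM in WT (SD, n = 3 each). The log2 difference was -0.39 ± 0.15 (95% interval -0.74 to -0.04) and was not called (limma adjusted p = 0.54).

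Cxcl14 was at 29.9, 28.6 and 31.5 TPM in Ndufa4l3-miR147 KO and at 19.9, 22.3 and 18.6 TPM in WT. The groups did not overlap, and the means were 30.0 ± 1.45 TPM in Ndufa4l3-miR147 KO and 20.3 ± 1.86 TPM in WT (SD, n = 3 each). The log2 difference of 0.55 ± 0.11 (95% interval 0.29 to 0.80) missed the threshold (limma adjusted p = 0.106). It was the largest difference of the 4 members in this comparison, and its call depended on the estimate of the spread. With the same difference of 0.55 it was called in a fit without replicate 1 (limma adjusted p = 0.0277) or without replicate 3 of Ndufa4 KO (limma adjusted p = 0.0338), libraries that are not part of the comparison.

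Cxcl16 was at 206, 209 and 217 TPM in Ndufa4l3-miR147 KO and at 209.5, 211 and 211 TPM in WT, and the libraries overlapped. The log2 difference was 0.00 ± 0.05, with a 95% interval of -0.11 to 0.11. Cxcl10 was at 936, 821 and 793 TPM in Ndufa4l3-miR147 KO, against 953, 906 and 989 TPM in WT. Replicate 1 of the knockout lay within the WT range and the others below it, and the log2 difference was -0.16 ± 0.10 (95% interval -0.38 to 0.06; limma adjusted p = 0.79). The median log2 difference was -0.08 over the 4 members and 0.00 over all genes. Libraries did not overlap for 2 of the 4, Cxcl9 and Cxcl14, and for 23.9% of all genes (11.9% higher and 12% lower in the knockout).

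**Figure D2:**
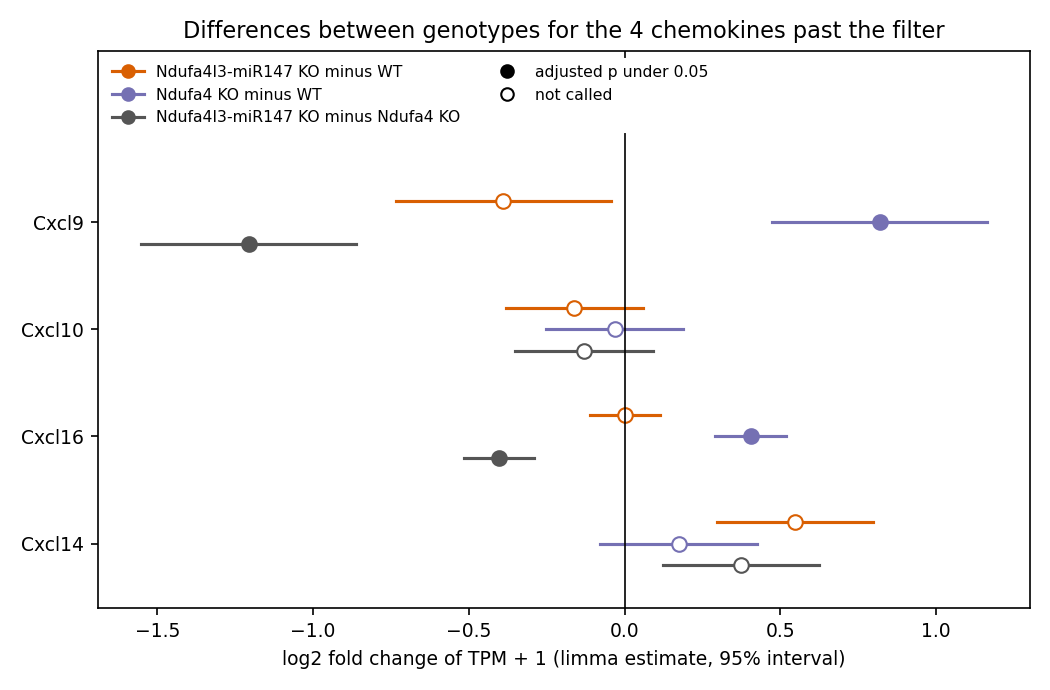
Log2 differences of TPM + 1 for the 4 CXC chemokines past the filter in the 3 comparisons (x axis), with 95% intervals from limma as lines and called genes as filled points. Cxcl9 and Cxcl16 are called in both comparisons that include Ndufa4 KO (0.82 and 0.40 against WT), and the intervals of Cxcl10 span 0 in all 3.

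Set against each other, the knockouts differed in Cxcl9 and Cxcl16. Cxcl9 was lower in Ndufa4l3-miR147 KO than in Ndufa4 KO by a log2 difference of -1.21 ± 0.15 (95% interval -1.55 to -0.86; limma adjusted p = 0.0052), and the highest Ndufa4l3-miR147 KO library, at 84.2 TPM, lay below the lowest Ndufa4 KO library, at 159 TPM. This call held under all 20 alternatives, with differences of -1.35 to -1.01. Cxcl16 was lower by -0.40 ± 0.05 (95% interval -0.52 to -0.29; limma adjusted p = 0.0048), again without overlap, and of the 20 alternatives 1, a fit of just these 6 libraries, lost the call (limma adjusted p = 0.0558). For Cxcl14 the libraries of Ndufa4l3-miR147 KO, from 28.6 to 31.5 TPM, lay above those of Ndufa4 KO, from 19.2 to 25.7 TPM, with a log2 difference of 0.37 ± 0.11 that was not called (limma adjusted p = 0.116). Without replicate 3 of Ndufa4 KO it was 0.45 and was called (limma adjusted p = 0.0446). Cxcl10 differed by -0.13 ± 0.10 (95% interval -0.35 to 0.09; limma adjusted p = 0.461). Thus 2 of 4 members were called lower and 0 higher, against 3.24% of all genes called (2.2% higher and 1.04% lower). The members' median was -0.27 and that of all genes 0.07, and libraries did not overlap for 3 of the 4 members, 2 lower and 1 higher in Ndufa4l3-miR147 KO, and for 25.3% of all genes, 6.98% lower and 18.3% higher. The comparisons with WT share the WT libraries, and each knockout's libraries also enter its comparison with the other knockout, so the 3 sets of differences are not independent.

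The relation between the Cxcr3 ligands was also taken within each library, where a common scale of the library cancels. The ratio of Cxcl9 to Cxcl10 TPM was 0.0900, 0.0970 and 0.0917 in Ndufa4l3-miR147 KO, 0.222, 0.189 and 0.182 in Ndufa4 KO, and 0.117, 0.101 and 0.110 in WT. The genotypes did not overlap in this ratio, which was highest in all Ndufa4 KO libraries and lowest in all Ndufa4l3-miR147 KO libraries. Replicate 1 of Ndufa4 KO, the highest library for both genes, stood nearer to the other two in the ratio than in Cxcl9 itself. The ratio averaged 0.198 ± 0.0212 in Ndufa4 KO and 0.109 ± 0.00781 in WT (SD, n = 3 each). The log2 ratio differed by 0.86 between Ndufa4 KO and WT and by -0.23 between Ndufa4l3-miR147 KO and WT. An exact two-sided permutation test gave p = 0.1 for each, the smallest that 3 against 3 libraries allow, and an adjusted p of 0.133 over 12 such ratio tests.

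The ratio of Cxcl16 to Cxcl10 was 0.261, 0.310 and 0.337 in Ndufa4 KO and 0.220, 0.233 and 0.213 in WT, without overlap. The log2 difference was 0.44 (exact permutation p = 0.1, adjusted 0.133). In Ndufa4l3-miR147 KO this ratio was 0.220, 0.255 and 0.274, which overlapped both other genotypes. It differed by 0.16 from WT and by -0.27 from Ndufa4 KO (exact permutation p = 0.2, adjusted 0.218, for each). The ratio of Cxcl14 to Cxcl10 was 0.0320, 0.0348 and 0.0397 in Ndufa4l3-miR147 KO and 0.0209, 0.0246 and 0.0188 in WT. Its log2 difference was 0.73, with every knockout library above every WT library (exact permutation p = 0.1, adjusted 0.133). In Ndufa4 KO that ratio was 0.0178, 0.0288 and 0.0294, which overlapped WT, and the log2 difference from WT was 0.21 (exact permutation p = 0.5). The other 5 of the 12 ratio tests were those of Cxcl9 to Cxcl16 in the 3 comparisons and those of Cxcl9 and Cxcl14 to Cxcl10 between the knockouts, and each gave the smallest p of 0.1, with libraries that did not overlap. The 12 tests share genes and libraries and are not independent. How often ratios of other gene pairs do not overlap was not examined.

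Cxcl1 was listed at 0, 0 and 0.228 TPM in Ndufa4l3-miR147 KO, at 0.148, 0 and 0.0590 TPM in Ndufa4 KO and at 0.140, 0.144 and 0.122 TPM in WT. Cxcl2 was at 0.439, 0.117 and 0.423 TPM in Ndufa4l3-miR147 KO, at 0.146, 0.215 and 0.379 TPM in Ndufa4 KO and at 0.563, 0.174 and 2.24 TPM in WT. These neutrophil attractants were thus close to 0 in all libraries, and only replicate 3 of WT exceeded 1 TPM, for Cxcl2. In a fit of all 29763 genes without a filter, neither was called in any comparison (limma adjusted p between 0.776 and 1).

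Of 9 other CXC ligands, 2 passed the filter. Pf4 (platelet factor 4, also Cxcl4), a ligand stored in platelets and also made by macrophages, was at 67.9, 77.5 and 78.7 TPM in Ndufa4 KO and at 97.7, 91.4 and 93.3 TPM in WT. It fell by 0.33 on the log2 scale in Ndufa4 KO (SE 0.07; limma adjusted p = 0.0281), with no overlap. That call was lost without any 1 of the WT libraries, under median-of-ratios scaling or quantile normalization, without the filter and with only the 6 libraries compared, with limma adjusted p up to 0.112 over the alternatives. Cxcl11, the remaining Cxcr3 ligand, which the annotation lists as a polymorphic pseudogene, averaged 2.06 ± 0.0996 TPM in Ndufa4l3-miR147 KO, 2.21 ± 0.102 TPM in Ndufa4 KO and 1.57 ± 0.0396 TPM in WT (SD, n = 3 each). Both knockouts lay above WT without overlap, and neither difference was called (0.25 ± 0.11, limma adjusted p = 0.584, in Ndufa4l3-miR147 KO; 0.32 ± 0.11, limma adjusted p = 0.0932, in Ndufa4 KO). Cxcl3, Cxcl5, Cxcl12, Cxcl13, Cxcl15 and Cxcl17 stayed under 1 TPM in every library.

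Of 8 receptors of CXC ligands, Cxcr3 and Cxcr4 passed the filter. Cxcr4, the receptor of Cxcl12, was at 10.3, 9.34 and 8.66 TPM in Ndufa4 KO and at 24.6, 24.9 and 26.1 TPM in WT. It fell by 1.33 on the log2 scale (SE 0.09; limma adjusted p = 3.3e-04), the largest difference among the listed genes of the CXC pathway, and was called under all 20 alternatives. In Ndufa4l3-miR147 KO it was at 21.5, 18.9 and 22.4 TPM, a difference of -0.26 from WT that was not called (limma adjusted p = 0.413). Cxcr3 averaged 9.43 ± 0.540 TPM in Ndufa4l3-miR147 KO, 7.60 ± 0.469 TPM in Ndufa4 KO and 7.17 ± 0.844 TPM in WT (SD, n = 3 each), and was called in no comparison. The receptors of Cxcl1, Cxcl2 and Cxcl16, namely Cxcr1, Cxcr2 and Cxcr6, were under 1 TPM everywhere.

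Of 15 tested genes of the interferon-gamma pathway upstream of Cxcl9 and Cxcl10, 0 were called higher and 1 lower in Ndufa4 KO against WT, where 2.83% of all genes were called higher and 5.76% lower. The median log2 difference was -0.03 over the list and -0.08 over all genes. The gene called was Stat2, a transcription factor of the type I interferon response, at 102, 103 and 88.3 TPM in Ndufa4 KO against 126, 130 and 133 TPM in WT (-0.41 ± 0.06, limma adjusted p = 0.0075). Irf1, a transcription factor that interferon-gamma induces, differed by -0.04 ± 0.04 in Ndufa4 KO. In Ndufa4l3-miR147 KO it differed from WT by 0.03 ± 0.04, and 0 of the 15 were called, against 0.431% of all genes.

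Of 16 tested genes of NF-kB signalling, 2 were called higher and 0 lower in Ndufa4 KO against WT, beside 2.83% higher and 5.76% lower over all genes, with a median of -0.02 against -0.08. Tnf, a cytokine gene that NF-kB induces, was at 87.3, 79.2 and 85.9 TPM in Ndufa4 KO against 68.4, 63.8 and 64.3 TPM in WT (0.36 ± 0.06, limma adjusted p = 0.0078). Relb, a subunit of the noncanonical pathway, was at 12.8, 14.2 and 15.9 TPM in Ndufa4 KO against 10.2, 10.2 and 10.4 TPM in WT (0.43 ± 0.08, limma adjusted p = 0.0173). The Relb call was lost without any 1 of the WT libraries and with only the 6 libraries compared (limma adjusted p up to 0.0791 over the alternatives). In Ndufa4l3-miR147 KO against WT, 0 of the 16 were called, against 0.431% of all genes. Myd88, the most abundant of them, differed by -0.03 ± 0.04, and Tnf differed by 0.30 ± 0.06 (limma adjusted p = 0.0807), with all 3 libraries above WT. The Tnf difference was called without replicate 3 of Ndufa4 KO in the fit (limma adjusted p = 0.0266), with only the 6 libraries compared and with the length and GC trend removed.

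Among 9 genes of chemokine mRNA decay, Zfp36, whose protein destabilises Tnf and chemokine transcripts, was called higher in Ndufa4 KO (0.30 ± 0.08, limma adjusted p = 0.0475), at 46.7 to 55.4 TPM against 38.0 to 42.1 TPM in WT. It lost the call under 11 of 20 alternatives, among them each fit without a WT or Ndufa4l3-miR147 KO library and that without replicate 1 of Ndufa4 KO, with limma adjusted p up to 0.162. The other 8 were not called, and 8.59% of all genes were called in this comparison. The median log2 difference was -0.10 over these 9 genes and -0.08 over all genes. Among 8 tested proteases that can cut chemokines, with a median of -0.02, 1 was likewise called. Mmp12, macrophage elastase, was lower in Ndufa4 KO, at 58.3, 48.2 and 47.5 TPM against 75.4, 72.8 and 74.2 TPM in WT (-0.53 ± 0.08, limma adjusted p = 0.0066), and was called under all 20 alternatives. Adam10 and Adam17 are named here after their values were seen because their products shed Cxcl16. Adam10 was at 152, 139 and 80.6 TPM in Ndufa4 KO and at 119, 124 and 123 TPM in WT. Adam17 was at 95.7, 90.2 and 65.1 TPM in Ndufa4 KO and at 80.7, 80.2 and 88.0 TPM in WT. For both, replicates 1 and 2 of Ndufa4 KO lay above every WT library and replicate 3, the library that stood apart, below. The differences of -0.03 ± 0.19 and -0.01 ± 0.13 were not called and have no settled direction. Without that replicate they were 0.24, which was called (limma adjusted p = 0.0218), and 0.16, which was not (limma adjusted p = 0.0849). Without replicate 1 of Ndufa4 KO the differences were -0.21 for Adam10 and -0.11 for Adam17, and without its replicate 2 they were -0.14 and -0.07. With length and GC trends removed they were 0.08 and 0.14. They were 0.04 and 0.07 under median-of-ratios scaling and 0.01 and 0.05 after quantile normalization. None of these was called. In Ndufa4l3-miR147 KO, 0 genes of either list were called against WT, beside 0.431% of all genes. The most abundant were the proteases Ctsb (-0.06 ± 0.05) and Ctsl (0.12 ± 0.04) and the RNA-binding protein genes Hnrnpd (0.03 ± 0.06) and Zfp36l2 (-0.01 ± 0.10).

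Between the knockouts, Cxcr4 was called higher in Ndufa4l3-miR147 KO by 1.07 ± 0.09 (limma adjusted p = 6.8e-04), under all 20 alternatives as well. Mmp12 was higher by 0.55 ± 0.08 (limma adjusted p = 0.0098), Stat2 by 0.36 ± 0.06 (limma adjusted p = 0.0193) and Pf4 by 0.33 ± 0.07 (limma adjusted p = 0.0463). Of the 20 alternatives, 17 kept the call of Mmp12, 14 that of Stat2 and 5 that of Pf4. Mmp12 lost it without replicate 1 or 3 of Ndufa4l3-miR147 KO, Stat2 without any 1 library of that genotype, and Pf4 in all fits that left out a library except that without replicate 3 of Ndufa4 KO, with limma adjusted p up to 0.0691, 0.111 and 0.174 over the alternatives. No other gene of these 6 lists was called between the knockouts, where 3.24% of all genes were.

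**Figure D3:**
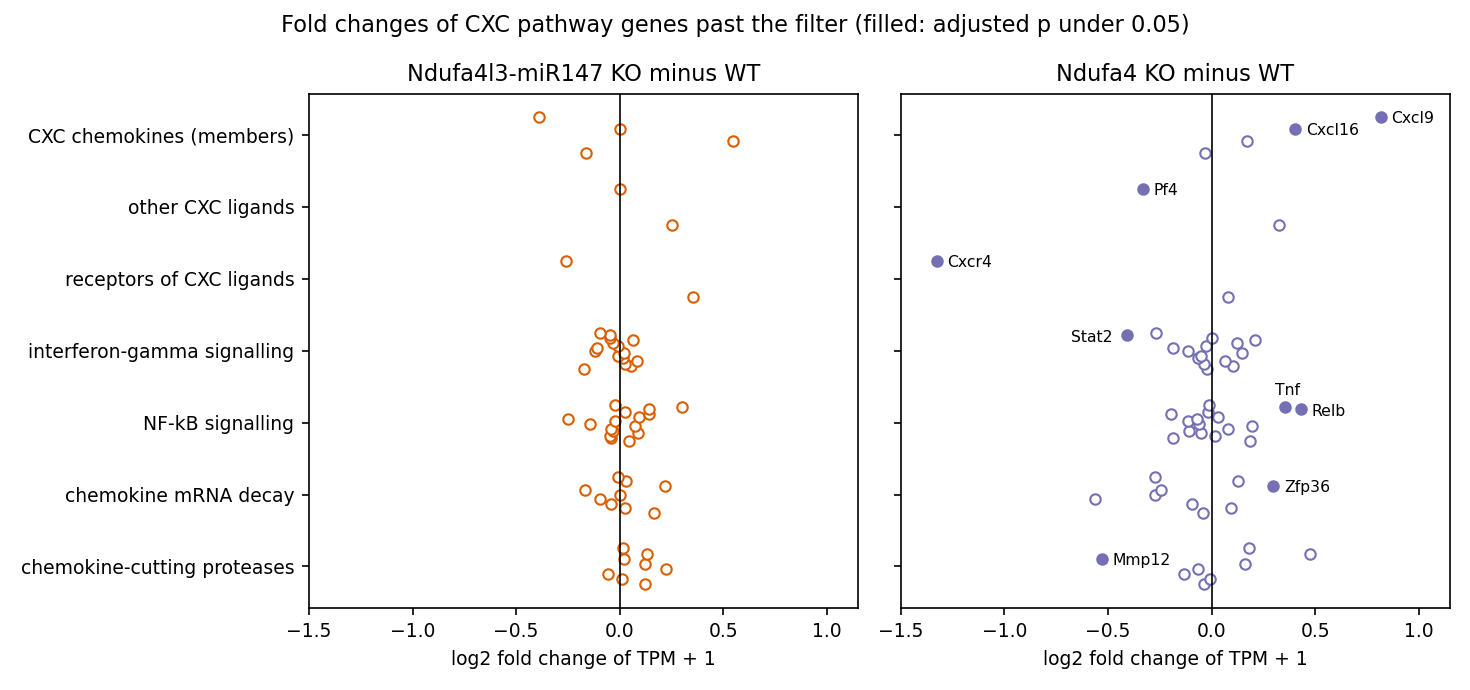
Log2 differences of TPM + 1 against WT (x axis) for the CXC chemokines past the filter and the tested genes of 6 related lists (rows), with Ndufa4l3-miR147 KO on the left and Ndufa4 KO on the right; each point is 1 gene, filled where called. No point is filled for Ndufa4l3-miR147 KO, and 9 are filled for Ndufa4 KO, from Cxcr4 at -1.33 to Cxcl9 at 0.82. Over all genes, 0.431% were called in Ndufa4l3-miR147 KO and 8.59% in Ndufa4 KO against WT.

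Markers of other cell types were set beside these results, since in bulk RNA fewer cells of a type and less RNA per cell cannot be told apart. Of 7 dendritic cell markers, Flt3, Zbtb46, Ccr7, Cd209a and Siglech were under 1 TPM in every library. The summed list ranged from 30.1 to 35.4 TPM in Ndufa4l3-miR147 KO, 40.9 to 76.7 TPM in Ndufa4 KO and 27.9 to 29.8 TPM in WT, nearly all of it Clec9a, a receptor for dead cells on cross-presenting dendritic cells. Clec9a was at 73.4, 53.5 and 38.7 TPM in Ndufa4 KO against 25.3, 27.7 and 27.1 TPM in WT (0.98 ± 0.19, limma adjusted p = 0.0166). The call was lost without any 1 of the WT libraries, without the filter and with only the 6 libraries compared, with limma adjusted p up to 0.0976 over the alternatives. In Ndufa4l3-miR147 KO Clec9a was at 32.9, 29.0 and 28.2 TPM, lower than in Ndufa4 KO by -0.81 ± 0.19 without a call (limma adjusted p = 0.0544), and it was called at -1.04 without replicate 3 of Ndufa4 KO (limma adjusted p = 0.0034). Replicate 1 of Ndufa4 KO was the highest library for Clec9a, Cxcl9 and Cxcl10 alike. Xcr1, the other marker of such cells past the filter, was at 2.83, 1.69 and 1.45 TPM in Ndufa4 KO and at 1.77, 1.34 and 1.25 TPM in WT, which overlapped. Which cells made the Clec9a transcript, whether dendritic cells were present and whether they had a part in the Cxcl9 result was not tested.

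Among the macrophage markers, Lyz2 was called higher in Ndufa4 KO (0.24 ± 0.04, limma adjusted p = 0.0112) and Mertk lower (-0.51 ± 0.13, limma adjusted p = 0.0487), while 5 of 7 were not called. Over all genes, 2.83% were called higher and 5.76% lower in Ndufa4 KO against WT. Lyz2, which encodes lysozyme, was at 5675, 5223 and 5345 TPM in Ndufa4 KO and at 4585, 4509 and 4660 TPM in WT, without overlap. Its call was lost under 5 of 20 alternatives, namely without WT replicate 1 or 2, without the filter, with only the 6 libraries compared and after quantile normalization, where the difference was 0.07 (limma adjusted p = 0.289). The Mertk call was lost under 12 of 20, among them each fit without a WT or Ndufa4l3-miR147 KO library, with limma adjusted p up to 0.196, and its difference was -0.33 without replicate 3 of Ndufa4 KO. Between the knockouts Lyz2 was called lower in Ndufa4l3-miR147 KO, at 4172, 4041 and 4069 TPM, by -0.40 ± 0.04 (limma adjusted p = 0.0017). That call was lost without the filter (limma adjusted p = 0.0766) and kept under 19 of 20 alternatives, and after quantile normalization the difference was -0.25. Lyz2 thus moved in the same direction as Cxcl9 and Cxcl16 in both comparisons with Ndufa4 KO, and the part of this in their results was not tested. Neutrophil markers summed to 39.4 to 76.8 TPM in Ndufa4l3-miR147 KO, 1.80 to 40.1 TPM in Ndufa4 KO and 4.35 to 83.2 TPM in WT, with Ly6g, Elane, Mpo and Cxcr2 under 1 TPM everywhere. Fibroblast and stromal markers summed to 37.1 to 45.7 TPM in Ndufa4l3-miR147 KO, 6.48 to 131 TPM in Ndufa4 KO and 7.40 to 44.8 TPM in WT, with Pdgfra, Pdgfrb and Lum under 1 TPM everywhere. Both lists overlapped between all genotypes, and 0 of their tested members were called in any comparison. Over all genes, 0.431% were called in Ndufa4l3-miR147 KO against WT, 8.59% in Ndufa4 KO against WT and 3.24% between the knockouts.

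For the members called in a comparison, the 3 genes with the most similar profile were taken as those with the smallest root mean square difference of centred log2(TPM + 1) over the 9 libraries. For Cxcl9, whose own SD over the libraries was 0.567, these were Bst1 (0.171), Col18a1 (0.218) and Naaa (0.234). In Ndufa4 KO against WT they differed by 0.81 ± 0.07, 0.74 ± 0.07 and 0.59 ± 0.10. For Cxcl16, with an SD of 0.207, they were Tuba1c (0.0510), Ucp2 (0.0520) and Npy (0.0531), which differed by 0.34 ± 0.05, 0.39 ± 0.06 and 0.32 ± 0.05. Since these genes were picked for their likeness to the members, their differences are given as a description.

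Naaa, which encodes a lysosomal acid amidase, lies 56.8 kb from Cxcl9 on chromosome 5 (chr5:92257659-92278170, minus strand). The genes reaching within 250 kb of Cxcl9, a window chosen after the values were seen, numbered 22 in the annotation with Cxcl9 itself. Of these 14 were in the table, and 10 beside Cxcl9 passed the filter. Of the 10, 1 was called in Ndufa4 KO against WT, where 8.59% of all genes were called, a share close to this 1 of 10. It was Naaa, at 263, 318 and 367 TPM in Ndufa4 KO in rising order against 201, 208 and 214 TPM in WT (limma adjusted p = 0.0119). It lost this call in the same 4 fits as Cxcl9, with limma adjusted p up to 0.0697 over the alternatives. The gene between them, Sdad1, was at 15.4, 19.0 and 20.5 TPM in Ndufa4 KO and at 16.7, 17.3 and 18.2 TPM in WT in rising order, and differed by 0.06 ± 0.10, or by 0.18 without replicate 3 and -0.02 without replicate 1 of Ndufa4 KO. Cxcl10 and Cxcl11, on the other side of Cxcl9, were not called. In Ndufa4l3-miR147 KO, 0 of the 10 neighbours were called against WT, where 0.431% of all genes were called, with log2 differences of -0.16 to 0.25.

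**Figure D4:**
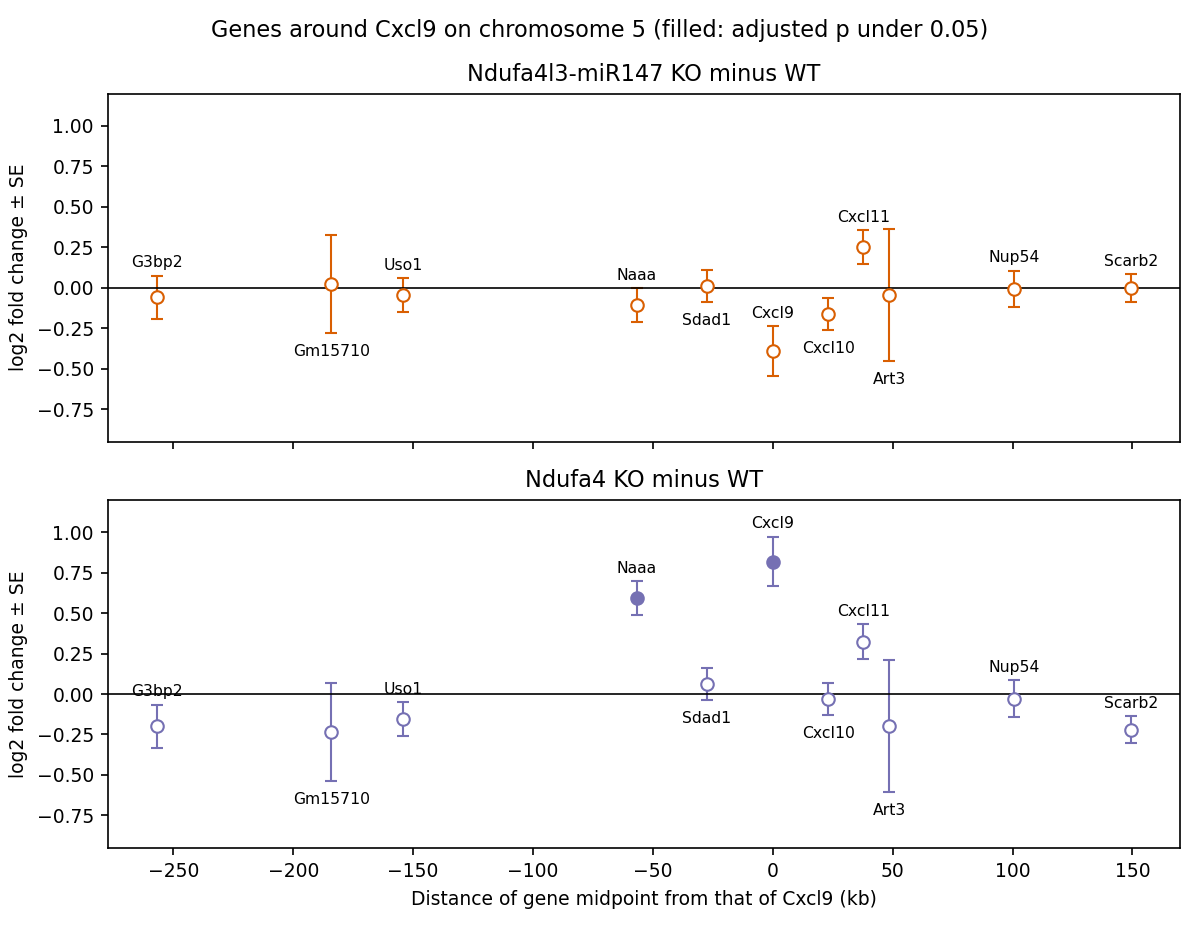
Log2 differences of TPM + 1 against WT (y axis, points with SE as bars, filled where called) for Cxcl9 and the 10 tested genes around it, by distance between gene midpoints in kb (x axis). In Ndufa4 KO (lower panel) Cxcl9 at 0.82 and Naaa at 0.59 are called, while Sdad1 between them and Cxcl10 beside them are not. In Ndufa4l3-miR147 KO (upper panel) none is called. Over all genes, 8.59% were called in Ndufa4 KO and 0.431% in Ndufa4l3-miR147 KO against WT.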

How the data were processed

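RNA was sequenced from 9 libraries. The deposited values are TPM, and the authors' submission notes name kallisto, DESeq2 and edgeR, with no version or role, and the builds mm10 and GRCm39. Sequences and coordinates given here are those of GRCm38 annotation. TPM are shares of a fixed total, so a gain in abundant genes lowers all others, and they keep no read depth. Values were taken as log2(TPM + 1), which understates changes of low genes. A filter of 1 TPM in 3 or more of the 9 libraries left 11133 genes. In R 4.3.3, limma 3.58.1 fitted a mean for each genotype across the 9 libraries (empirical Bayes with intensity trend, two-sided, Benjamini-Hochberg over the genes left, called under 0.05). The procedure was tested on simulated data. One entry without a gene name was left out. The separate values of 1 gene of the interferon-gamma list are not reported here.

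The members and gene lists were chosen with earlier results of these data known. All 6 members are named. Of each list up to 4 called genes per comparison are named by smallest adjusted p or, where none was called, the 2 most abundant, and for each called member the 3 genes of most similar profile. Adgre1, a macrophage marker, was not analysed here. Alternatives were pseudocounts of 0.1 and 5, no filter or 5 TPM, median-of-ratios scaling, quantile normalization, removal of the trend with transcript length and GC content, a fit of the 6 libraries compared, a replicate block, other empirical Bayes settings and each library left out.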

Additional observations from a re-analysis of the deposited data

How the results depend on the processing

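The 3 comparisons were refitted under 20 alternatives each. Of 240 member values, 223 kept their direction and side of the threshold, 5 lost a call, 5 gained one and 7 turned sign. Cxcl9 in Ndufa4 KO against WT kept its difference of 0.82 but not its call without a filter (limma adjusted p = 0.0914) or with only the 6 libraries compared (0.0647), and ranged from 0.62 to 0.92 with 1 library left out. Cxcl16 between the knockouts (-0.40) lost its call with only the 6 libraries compared (0.0558). Cxcl14 in Ndufa4l3-miR147 KO against WT was called at 0.56 with the length and GC trend removed and at 0.55 with only the 6 libraries compared, and ranged from 0.49 to 0.61 with 1 library left out; between the knockouts that range was 0.25 to 0.45. The differences that turned sign lay near 0. Cxcl10 in Ndufa4 KO against WT was 0.0426 under median-of-ratios scaling and -0.143 to 0.0347 with 1 library left out. Cxcl16 in Ndufa4l3-miR147 KO against WT was -0.0108 after quantile normalization, -0.00768 with length and GC trends removed, and -0.0205 to 0.0177 with 1 library left out.

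Genes called in Ndufa4l3-miR147 KO against WT, in Ndufa4 KO against WT and between the knockouts numbered 30, 497 and 227 without a filter, 133, 1564 and 830 with the length and GC trend removed, and 306, 238 and 64 with only the 6 libraries compared. Without the intensity trend 30 were called in the first comparison. With 1 library left out the counts ranged from 13 to 198, 266 to 1586 and 82 to 740; the highest of each came without replicate 3 of Ndufa4 KO. The share of calls that were higher in Ndufa4 KO than in WT was 32.9%, but 52.3% under median-of-ratios scaling, 52.1% after quantile normalization and 55.4% once length and GC trends were removed. Between the knockouts, 67.9% of calls were higher in Ndufa4l3-miR147 KO than in Ndufa4 KO, but 49.8%, 50.8% and 41.9% in the same 3 settings. The cause of these shifts was not tested. Cxcl9 and Cxcl16 kept their calls in both comparisons with Ndufa4 KO under these 3 scalings.

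Deviations of same-numbered libraries had correlations of -0.138 to 0.179 across genes, and those of other pairs -0.164 to 0.132. These values show no clear pairing by number, but with 3 libraries per genotype they cannot exclude it. With the replicate number as a block, 24, 661 and 162 genes were called in the 3 comparisons, and no member's call changed. Cxcl1 and Cxcl2 lie too low for a comparison at a depth that TPM do not show.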
